A study of Mus musculus with 6 samples.

Results

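The 10 genes described here encode transcription factors and cofactors of the red cell and platelet lineages: Gata1, Gata2, Klf1, Tal1, Gfi1b, Nfe2, Lmo2, Zfpm1, Fli1 and Lyl1. They were taken by their GENCODE vM21 symbols from the 46078 Ensembl genes of each count table, and all 10 were present and passed the low-count filter. Total RNA of mice was sequenced in 3 libraries labelled JMML, for juvenile myelomonocytic leukemia, and 3 labelled wild type (WT below). JMML is a childhood leukemia in which monocytic and granulocytic cells accumulate, and the series title places the mice in a model of fetal blood formation that persists after birth. The sources used here do not give the altered gene, the promoter or Cre that drives it, the strain, the age or the tissue. Each library has its own identifier, but the labels do not say that each is a separate animal. The p-values therefore set group differences only against the spread between these libraries.

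GATA2 acts in blood stem and progenitor cells, and GATA1 replaces it at many sites as cells become red cells or megakaryocytes, the precursors of platelets. FOG1, the product of Zfpm1, binds GATA1 and is needed for both lineages. TAL1 or its close relative LYL1 joins LMO2 and LDB1 in a complex that bridges GATA sites and E-boxes, while KLF1 switches on red cell genes, NF-E2 (Nfe2) platelet genes, and FLI1 the megakaryocyte fate.

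Totals were between 91976512 and 108395459 counts in JMML and between 47096464 and 61656272 in WT, so 1 count was worth between 0.00923 and 0.0212 CPM. Each JMML library was deeper than each WT library, and the part of depth in the results was not tested. The smallest count of any factor in any library was 824 (Gata2, JMML replicate 1), so counting error is small beside the spread between libraries. Sample identifiers carry a final letter, which is F for JMML replicates 1 and 2 and M for the other 4 libraries. Xist, the transcript of the inactive X chromosome, had 49961 counts or more with the letter F and 36 or fewer with M. By Xist the F libraries were female and the M libraries male, so the letter, and with it sex, differs partly along with the group. The 4 M libraries set JMML replicate 3 alone against 3 WT libraries, so their p-values take the spread from WT only and assume that the lone library varies alike. JMML replicate 3 and WT replicate 3 also have identifiers that begin alike, and the labels do not say what that part stands for. Levels below are scaled CPM (counts-per-million after TMM scaling), and changes are log2 fold changes of JMML over WT with their standard error (SE). "Rose" and "fell" mean an adjusted p under 0.05 (Benjamini-Hochberg, over 18097 tested genes) in the quasi-likelihood test of edgeR.

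Of the 10 factors, 6 fell in JMML (Zfpm1, Tal1, Gata1, Klf1, Gfi1b and Gata2), 2 rose (Fli1 and Lyl1) and 2 did not pass the test (Lmo2 and Nfe2). Over all tested genes 26.2% were called, 13.8% lower and 12.4% higher. The median log2 fold change of the 10 was −1.27, against −0.02 over all tested genes. The JMML and WT libraries did not overlap for the 8 called factors, as for 47.5% of all tested genes. With the letter as a covariate 1 factor was called (Zfpm1), where 12.3% of all tested genes were. Omitting JMML replicate 3 or WT replicate 2 left 3 of the 8 calls, where 18.2% and 11.7% of all genes were called. Omitting WT replicate 1 left 2, where 15.9% were. The counts of 1 and 2 of 10 are not set apart from these shares. Within the M libraries the median change of the 10 was −1.35. In bulk RNA, fewer cells of a type and less RNA per cell cannot be told apart.

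**Figure D1:**
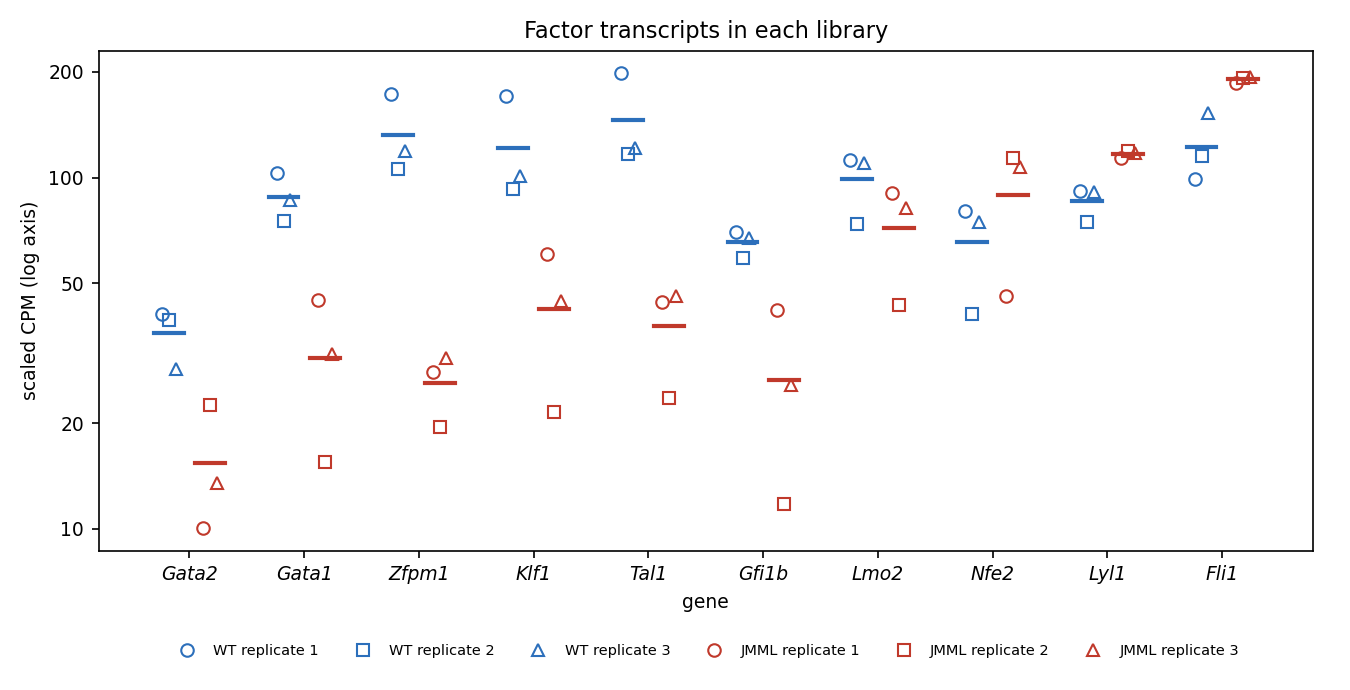
Scaled CPM (log axis) of the 10 factors in each of the 6 libraries; blue symbols are WT, red symbols JMML, symbol shape gives the replicate number and bars the group mean. The 6 factors from Gata2 to Gfi1b lie lower in all JMML libraries than in any WT library, Lyl1 and Fli1 lie higher, and the groups overlap for Lmo2 and Nfe2.

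Promoter sequences of the factors are shown because 6 of the 10 fell, 3 of them with a GATA motif in the 250 bases before a start site. Gata1, Gata2 and Zfpm1 fell without that motif in their windows. Of the factors that did not fall only Lyl1 had a sequence, and a link between motif and fall was not tested. RefSeq promoters (GRCm38.p6) matched 7 of the 10 symbols, with 9 start sites; Nfe2, Lmo2 and Fli1 had no entry. The GATA motif was searched as AGATAA or TGATAA on both strands in the 250 bases before each start. It was found in 1 window each of Tal1, Gfi1b and Klf1, and in 16.6% of all 32851 RefSeq promoter windows of that length. Capitals mark this motif, here read 5′ to 3′ along the gene, as TGATAA in Gfi1b and, lying on the opposite strand, as its reverse complement in Tal1 and Klf1. The sequences lie at chr4:115056176-115056425 (+, Tal1), chr2:28621983-28622232 (−, Gfi1b) and chr8:84901732-84901927 (+, Klf1, shortened to the 196 bases before its first GENCODE exon).
Tal1: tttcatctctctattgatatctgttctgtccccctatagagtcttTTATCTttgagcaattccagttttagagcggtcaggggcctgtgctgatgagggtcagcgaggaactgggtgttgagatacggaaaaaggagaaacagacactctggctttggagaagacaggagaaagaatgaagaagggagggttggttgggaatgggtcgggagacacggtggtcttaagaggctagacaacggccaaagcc
Gfi1b: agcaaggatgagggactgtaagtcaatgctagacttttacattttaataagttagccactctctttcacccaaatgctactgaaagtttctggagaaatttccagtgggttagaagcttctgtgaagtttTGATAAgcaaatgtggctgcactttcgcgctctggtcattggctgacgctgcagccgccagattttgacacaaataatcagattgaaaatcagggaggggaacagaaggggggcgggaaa
Klf1: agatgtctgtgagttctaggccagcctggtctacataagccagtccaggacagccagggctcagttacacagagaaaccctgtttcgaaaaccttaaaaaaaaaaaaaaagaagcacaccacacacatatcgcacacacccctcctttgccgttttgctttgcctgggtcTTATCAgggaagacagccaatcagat
The GATA motif lies 205 to 200 bases before the start in Tal1, 120 to 115 in Gfi1b and 80 to 75 in Klf1. A CACC box was searched as CCNCNCCC on both strands, with overlapping matches allowed. It was found in 7 of the 9 windows, from 6 of the 7 genes, and in 45.9% of all windows. The second Gata2 window is counted here although all 250 of its bases lie in GENCODE exons of the gene. The letters also match unbroken G runs, as in 1 marked stretch of Lyl1, and GC-rich stretches such as GGGCGGGG, marked in Zfpm1. Matches are in capitals in the next pair, shown because Zfpm1 fell most and Lyl1 rose. The pair lies at chr8:122281891-122282140 (+, Zfpm1) and chr8:84701207-84701456 (+, Lyl1).
Zfpm1: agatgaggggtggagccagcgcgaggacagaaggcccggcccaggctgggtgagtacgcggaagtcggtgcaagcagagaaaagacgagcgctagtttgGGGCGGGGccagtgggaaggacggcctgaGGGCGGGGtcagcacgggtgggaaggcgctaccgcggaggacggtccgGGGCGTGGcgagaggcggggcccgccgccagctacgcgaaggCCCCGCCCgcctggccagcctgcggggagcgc
Lyl1: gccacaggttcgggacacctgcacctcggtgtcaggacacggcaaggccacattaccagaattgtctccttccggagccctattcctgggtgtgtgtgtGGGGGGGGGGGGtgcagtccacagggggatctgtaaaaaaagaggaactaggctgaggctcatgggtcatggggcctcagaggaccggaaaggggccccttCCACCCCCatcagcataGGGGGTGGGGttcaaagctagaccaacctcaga
Neither window holds a GATA motif. Their GC content was 73.2% (Zfpm1) and 60.0% (Lyl1), against a median of 52.4% over all promoter windows. An ETS motif (CCGGAA or AGGAAG) was found in 2 of the 9 windows, those of Gata1 and Lyl1, and in 38.2% of all windows. An E-box (CANNTG) was found in 4 of the 9 windows and 66.2%, and an NF-E2 motif (TGAGTCA or TGACTCA) in 0 of the 9 windows and 4.46%. These matches describe the letters only.

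Zfpm1, which encodes the GATA1 partner FOG1, had the largest change of the 10. The gene (ENSMUSG00000049577) lies on chromosome 8, 122282141 to 122337251 (GRCm38, plus strand). It stood at 172, 106 and 119 scaled CPM in WT replicates 1, 2 and 3 and at 27.9, 19.5 and 30.7 in JMML replicates 1, 2 and 3. Every JMML library was therefore well under the lowest WT library, at group means of 132 ± 35.3 and 26.0 ± 5.81 (SD, n = 3). The log2 fold change was −2.35 ± 0.24 SE (adjusted p = 0.00241), 5.09-fold lower. Zfpm1 was called under all 15 alternatives that were run, with changes between −2.53 and −2.06 and −2.08 in the M libraries.

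Tal1, the basic helix-loop-helix factor of the complex, fell by 1.94 on the log2 scale. Its gene (ENSMUSG00000028717) is on chromosome 4, 115056426 to 115071755 (plus strand). WT replicates 1, 2 and 3 had 198, 117 and 121 scaled CPM, and JMML replicates 1, 2 and 3 had 44.4, 23.5 and 45.9. WT replicate 1 was the highest library and JMML replicate 2 the lowest. The SE was 0.31 and the adjusted p 0.00648, 3.84-fold lower. With the letter as a covariate the call ended (−1.67, adjusted p = 0.0569, against 3.88e-09 to 0.0416 in the other 14 alternatives), and within the M libraries the change was −1.63.

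Gata1 (ENSMUSG00000031162) is on the X chromosome, 7959260 to 7978071 (minus strand). The lineage-defining factor of red cells and megakaryocytes, it had 103, 75.4 and 86.2 scaled CPM in WT replicates 1, 2 and 3 and 44.9, 15.5 and 31.5 in JMML replicates 1, 2 and 3. The JMML libraries spread 2.90-fold among themselves and all lay under WT. The log2 fold change was −1.53 ± 0.35 SE (adjusted p = 0.0199), 2.88-fold lower. Within the M libraries, where 1 JMML library gives no spread of its own, the change was −1.45 (adjusted p = 0.0192). The call ended with the letter as a covariate (−1.49) and without WT replicate 1 (−1.36), and the adjusted p ran from 4.56e-05 to 0.12 over the 15 alternatives.

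Klf1, the red cell factor that drives adult globin and membrane genes, followed the same order of libraries as Gata1 in JMML. The gene (ENSMUSG00000054191) lies on chromosome 8, 84901928 to 84905291 (plus strand). It had 170.5, 92.6 and 101 scaled CPM in WT replicates 1, 2 and 3 and 60.6, 21.5 and 44.5 in JMML replicates 1, 2 and 3, a change of −1.52 ± 0.39 SE (adjusted p = 0.0281). WT replicate 1 again stood above the other WT libraries, and the groups did not overlap. The call ended with the letter (−1.45), in the M libraries (−1.41), and on omitting JMML replicate 3 (−1.55), WT replicate 1 (−1.15) or WT replicate 2 (−1.69), with adjusted p between 0.000191 and 0.158 over all alternatives.

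Gfi1b, a zinc finger repressor needed in red cells and megakaryocytes, was the call nearest the threshold. The gene (ENSMUSG00000026815) is on chromosome 2, 28609450 to 28621982 (minus strand). WT replicates 1, 2 and 3 had 70.1, 58.9 and 67.3 scaled CPM, and JMML replicates 1, 2 and 3 had 42.1, 11.8 and 25.7. WT libraries were close together and JMML replicates ranged over 3.57-fold, in the order of Gata1 and Klf1. The log2 fold change was −1.30 ± 0.40 SE (adjusted p = 0.0488). The call ended under the letter covariate (−1.35) and on omitting JMML replicate 3 (−1.26) or WT replicate 1 (−1.21), 2 (−1.38) or 3 (−1.24). Within the M libraries the change was −1.31, with the spread taken from WT, which ranged over 1.19-fold. Adjusted p ran from 0.00221 to 0.188.

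Gata2, the GATA factor of stem and progenitor cells, fell too, but with another order of the JMML libraries. The gene (ENSMUSG00000015053) is on chromosome 6, 88193891 to 88207032 (plus strand). It had 40.8, 39.4 and 28.5 scaled CPM in WT replicates 1, 2 and 3 and 10.1, 22.5 and 13.5 in JMML replicates 1, 2 and 3. JMML replicate 2, the lowest in Gata1, Klf1 and Gfi1b, was the highest JMML library in Gata2. The log2 fold change was −1.24 ± 0.30 SE (adjusted p = 0.0246), 2.36-fold lower. The call ended under the letter covariate (−1.42) and on omitting JMML replicate 3 (−1.12), WT replicate 1 (−1.09) or WT replicate 2 (−1.17), with adjusted p between 0.000384 and 0.0897. Within the M libraries the change was −1.38, with the spread taken from WT.

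The exchange of GATA2 for GATA1 in red cell formation makes their ratio within a library of interest, and that ratio does not depend on library scaling. Per kb of exon, Gata1 exceeded Gata2 in all 6 libraries. The ratio was 5.60, 4.24 and 6.71 in WT replicates 1, 2 and 3 and 9.88, 1.52 and 5.16 in JMML replicates 1, 2 and 3. JMML replicate 1 lay above and JMML replicate 2 below every WT library. The mean log2 ratio was 2.09 ± 1.37 in JMML and 2.44 ± 0.33 in WT (SD, n = 3), a difference of −0.35. A two-sided exact permutation test gave p = 0.8, where 3 libraries against 3 cannot go under 0.1. Without JMML replicate 2 the difference was 0.40, so no direction was resolved.

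**Figure D2:**
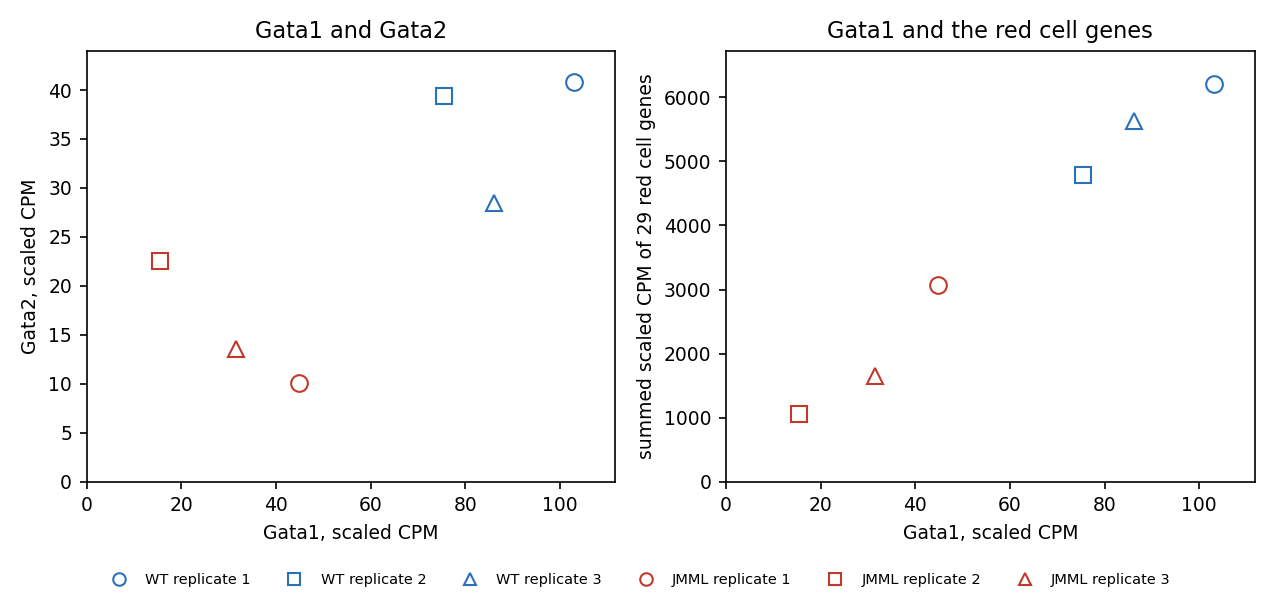
Scaled CPM of Gata1 in each library (x axes) against Gata2 (left, scaled CPM) and against the summed scaled CPM of 29 red cell genes (right); symbols as in the plot of all factors. Among the 3 JMML libraries Gata2 runs opposite to Gata1, and the red cell sum orders them as Gata1 does.

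Lyl1 and Fli1 were the factors that rose, and their JMML libraries were close together. LYL1 is the relative of TAL1 found mainly in stem cells, progenitors and lymphoid cells. Its gene (ENSMUSG00000034041, chromosome 8, 84701457 to 84704715, plus strand) had 91.7, 74.7 and 91.1 scaled CPM in WT replicates 1, 2 and 3 and 113, 119 and 117 in JMML replicates 1, 2 and 3. The lowest JMML library was above the highest WT library, and the change was 0.44 ± 0.11 SE (adjusted p = 0.0277), 1.36-fold. Settings that ended the call included library totals alone as scaling (0.26), the letter (0.45), the M libraries (0.49), and the omission of JMML replicate 2 (0.44), JMML replicate 3 (0.46), WT replicate 1 (0.54) or WT replicate 2 (0.35), with adjusted p between 0.0155 and 0.136.

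Fli1, an ETS factor of megakaryocytes, endothelium and many white blood cells, lies on chromosome 9, 32422204 to 32542861 (minus strand, ENSMUSG00000016087). It had 98.9, 115 and 153 scaled CPM in WT replicates 1, 2 and 3 and 186, 192 and 193 in JMML replicates 1, 2 and 3. WT varied more than JMML, with SDs of 27.5 and 3.46 around means of 122 and 190.4 (n = 3). The log2 fold change was 0.64 ± 0.16 SE (adjusted p = 0.0277), 1.56-fold. The call ended with library totals alone (0.46), with the letter (0.66), in the M libraries (0.70), and without JMML replicate 2 (0.65), JMML replicate 3 (0.65), WT replicate 1 (0.55) or WT replicate 2 (0.59), with adjusted p between 0.00602 and 0.12.

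Signal inside the introns of Fli1 went the other way. Within those introns, on the same strand and with no exon shared, GENCODE places 4 short loci of its TEC class, which holds transcribed regions still awaiting experimental proof. They were examined after the values were seen. Their summed level was 18.4, 30.0 and 18.1 scaled CPM in WT replicates 1, 2 and 3 and 11.6, 11.7 and 8.29 in JMML replicates 1, 2 and 3, so the groups did not overlap. Of the 4, 3 fell, namely Gm38346 (−0.93 ± 0.24), Gm37474 (−1.29 ± 0.30) and Gm37082 (−1.06 ± 0.30), and Gm38292 was at −0.96 ± 0.39 (adjusted p = 0.109). The same direction held for the class: of 652 tested TEC loci 220 were lower and 3 higher, with a median of −1.15. The part of intron signal in the Fli1 result was not tested.

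**Figure D3:**
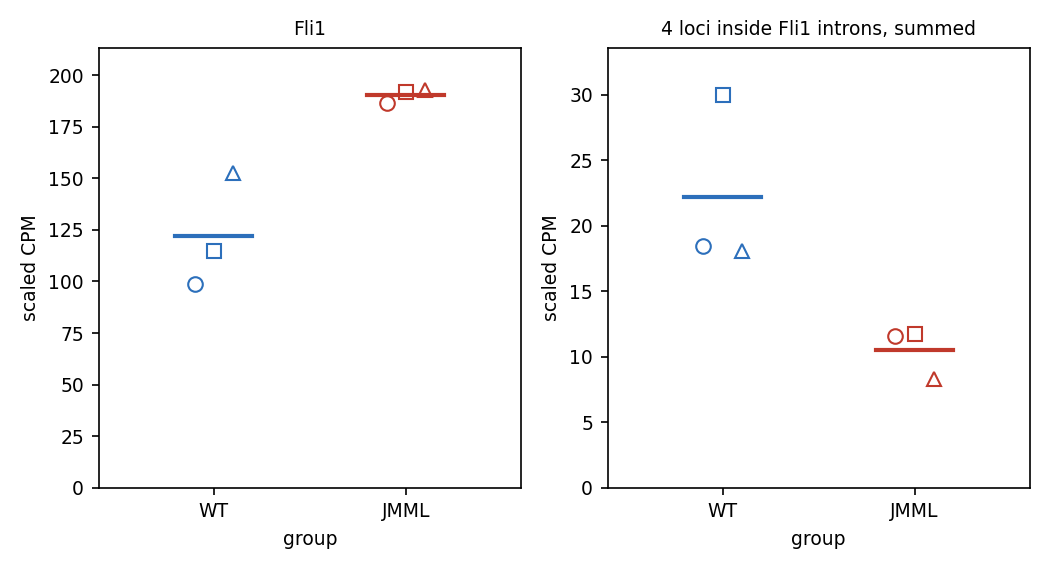
Scaled CPM of Fli1 (left) and the summed scaled CPM of 4 TEC loci inside its introns (right) in each library; bars are group means, symbols as in the plot of all factors. Fli1 is higher in the 3 JMML libraries and the intron loci are lower.

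Lmo2 and Nfe2 did not pass the test. In simulated data it recovered only 6% of 1.5-fold changes, but 200 genes were changed there and 4737 were called here. With fewer changed genes the adjusted p is stricter, so the 6% does not give the power of the test in these data. Lmo2, the bridging protein of the complex (ENSMUSG00000032698, chromosome 2, 103957986 to 103981878, plus strand), had 112, 74.0 and 109.9 scaled CPM in WT replicates 1, 2 and 3 and 90.3, 43.3 and 81.7 in JMML replicates 1, 2 and 3. The groups overlapped, with JMML replicate 2 lowest and a change of −0.46 ± 0.29 SE (adjusted p = 0.262). Nfe2, the p45 subunit of NF-E2 (ENSMUSG00000058794, chromosome 15, 103248212 to 103258403, minus strand), had 80.4, 40.9 and 74.8 scaled CPM in WT replicates 1, 2 and 3. In JMML replicates 1, 2 and 3 it had 45.9, 114 and 107. JMML replicate 1 lay within the WT range and the other JMML libraries above it, and the change was 0.44 ± 0.37 SE (adjusted p = 0.406). Neither gene was called in any of the 15 alternatives, in which Lmo2 ran from −0.65 to −0.18 and Nfe2 from 0.20 to 0.77.

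**Figure D4:**
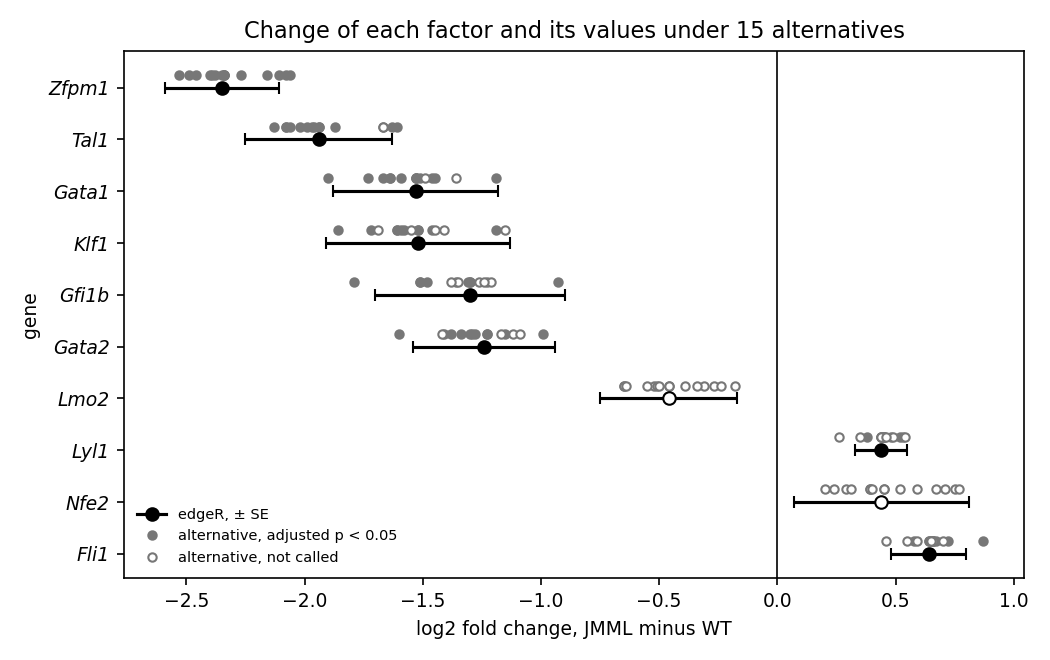
Log2 fold change (JMML minus WT, x axis) of each factor: black points with SE are edgeR's quasi-likelihood test, filled where called; grey points above them are the 15 alternatives, filled where the adjusted p was under 0.05. Zfpm1 is called in all 15 alternatives, and Lmo2 and Nfe2 in none.

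The order of the factors by level differed between the groups. Per kb of exon, Klf1 was the highest in WT at 79.3 ± 28.0 scaled CPM per kb, above the range of all others. Lyl1, Lmo2, Zfpm1, Gata1, Gfi1b, Fli1, Tal1 and Nfe2 followed, from 47.7 ± 5.38 for Lyl1 to 21.9 ± 7.16 for Nfe2, and the ranges of neighbours in this order overlapped. Gata2 was the lowest at 6.71 ± 1.25 (SD, n = 3), with no overlap with Nfe2. In JMML the highest were Lyl1 at 64.8 ± 1.61 and Fli1 at 54.6 ± 0.992 scaled CPM per kb, with ranges apart from each other and from the rest. Lmo2, Nfe2, Klf1, Gfi1b, Gata1, Tal1 and Zfpm1 followed, each overlapping its neighbour, from 33.1 ± 11.5 for Lmo2 to 7.43 ± 1.66 for Zfpm1. Gata2 was again lowest at 2.85 ± 1.19. Zfpm1 stood in the fourth place in WT and the ninth in JMML.

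Lyl1 and Klf1 lie 197 kb apart on chromosome 8 and changed in opposite directions. The 9 tested genes between them had a median log2 fold change of 0.07. Calr, the chaperone calreticulin and the most abundant of them, was at 0.63 ± 0.21 (adjusted p = 0.0628). These neighbours were looked at after the values of both factors were known. Exons of Lyl1 share 4 bases with Nfix on the opposite strand, and no other factor shares exon bases with an annotated gene.

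Partners of these factors were called in both directions. Of 16 tested partners and cofactors, 9 fell and 2 rose, with a median of −0.51, where 26.2% of all genes were called. Cbfb, the subunit that stabilises RUNX proteins on DNA, rose (0.63 ± 0.10), while Runx1 itself fell (−0.68 ± 0.14). Lmo4, a relative of Lmo2 that also binds LDB1, rose (0.78 ± 0.16), and Ssbp3, which protects LDB1 from degradation, fell (−0.67 ± 0.15). Ldb1 fell by 0.51 and the E-proteins Tcf3 and Tcf12, dimer partners of TAL1 and LYL1, by 0.77 and 0.68, named here after their values were seen. Within the M libraries the median was −0.39. The count of 9 lower was 1 under the letter covariate. It was 2 on omitting JMML replicate 2 or 3, 1 on omitting WT replicate 1 or 2, and 5 on omitting WT replicate 3. Over all tested genes 12.3% were called with the letter and 11.7% to 18.2% on these omissions, in either direction. The letter ended the calls of Runx1, Ssbp3 and Lmo4. Those of Ssbp3 and Lmo4 also ended in the M libraries, that of Runx1 on omitting JMML replicate 3 or WT replicate 2, and that of Ssbp3 on omitting JMML replicate 2, WT replicate 1 or WT replicate 2.

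Among 18 tested relatives of the factors, 4 rose and 3 fell, with a median of 0.02, where 12.4% of all genes were higher and 13.8% lower. Shares of this size are not set apart from those of all genes, and the calls below are those of single genes. Zfpm2, the paralog of Zfpm1, fell from a low level of 1.29 scaled CPM or less in any library (−3.23 ± 0.65). Bach2, a B-cell repressor of the NF-E2 superfamily, had 25.1, 22.8 and 46.5 scaled CPM in WT replicates 1, 2 and 3 and fell (−4.35 ± 0.42). Lmo1 (1.56 ± 0.19) and Klf6 (1.02 ± 0.14) rose. Chosen for naming once their values were known, the other calls were the heme-regulated repressor gene Bach1 (0.50) and Klf4 (0.82), which rose, and Klf3 (−0.59), which fell. Gfi1, the myeloid paralog of Gfi1b, stood at 34.5, 68.2 and 65.9 scaled CPM in JMML replicates 1, 2 and 3 and between 37.3 and 39.1 in WT (0.55, adjusted p = 0.137). Erg, the closest relative of Fli1, was at −0.32 (adjusted p = 0.362), both named after their values were seen. The 3 lower became 5 and the 4 higher 2 with library totals alone, and the 4 higher became 2 under the letter covariate or on omitting WT replicate 1 or 2.

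Red cell genes fell beside the factors. Of 29 tested, 19 fell, where 13.8% of all tested genes did, and 10 did not pass, with a median of −1.72. Ank1, the ankyrin of the red cell skeleton, had 351, 239.7 and 223 scaled CPM in WT replicates 1, 2 and 3 and 79.8, 28.2 and 44.0 in JMML replicates 1, 2 and 3 (−2.42 ± 0.38). The mitochondrial iron importer Slc25a37 (−1.64 ± 0.18), glycophorin C gene Gypc (−1.28 ± 0.17) and the adhesion molecule gene Icam4 (−1.79 ± 0.36) fell as well, Icam4 without a call with the letter or in the M libraries. The erythropoietin receptor gene Epor, named after its values were seen, was at −1.23 (adjusted p = 0.0558). The summed level of the 29 genes was between 4784 and 6208 scaled CPM in WT and was 3070, 1062 and 1649 in JMML replicates 1, 2 and 3, the order that Gata1, Klf1 and Gfi1b show. The part of red cell number in the factors' change was not tested. The 19 became 4 with the letter, 8 without JMML replicate 3, 7 on omitting WT replicate 1 or 2, and 9 on omitting WT replicate 3. Over all tested genes 12.3% were called with the letter, in either direction, so the 4 of 29 are near that share. Without JMML replicate 3 and WT replicates 1, 2 and 3 it was 18.2%, 15.9%, 11.7% and 17.7%.

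Of the platelet and megakaryocyte genes 20 of 26 fell, where 13.8% of all tested genes did, although Fli1 rose and Nfe2 did not pass. The median was −3.45 (−2.93 without WT replicate 3). Tubb1, the platelet tubulin gene and a textbook target of NF-E2, had 24.4, 18.6 and 77.6 scaled CPM in WT replicates 1, 2 and 3 and at most 0.751 in JMML (−6.15 ± 0.70). Gp1ba and Gp9, which encode parts of the receptor that holds platelets to von Willebrand factor, were at −4.65 ± 0.45 and −3.91 ± 0.49, and Rab27b, a granule transport gene, at −3.40 ± 0.43. All 4 were called in each of the 15 alternatives. WT replicate 3 was the highest library for each of these genes, whereas it was not so for any of the 6 factors that fell. The summed level of the list overlapped between groups (639 to 2193 scaled CPM in JMML, 1179 to 3205 in WT). Of that sum 40.2% came from Thbs1, named after its values were seen, which white blood cells also express and which did not pass the test (0.96, adjusted p = 0.416). Without WT replicate 3, 1 gene of the list was higher.

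**Figure D5:**
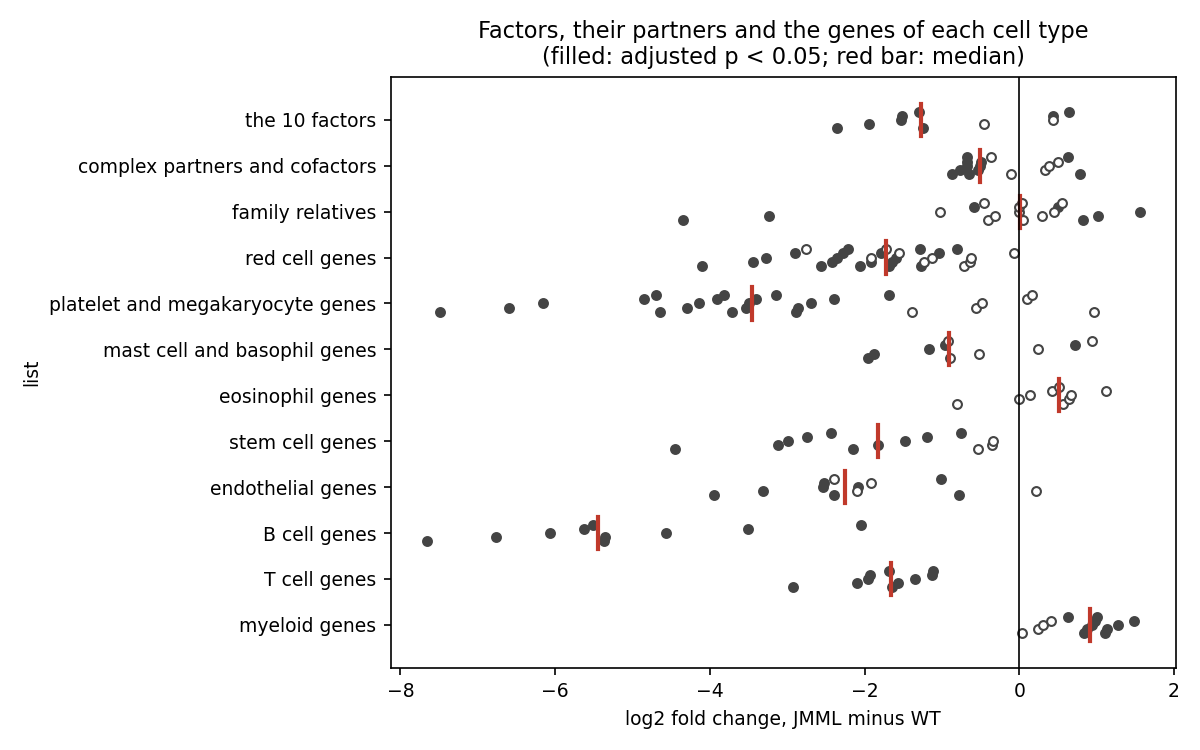
Log2 fold change (JMML minus WT, x axis) of every tested gene of the factors and the 11 other lists (y axis); filled points were called, red bars are list medians. The platelet list has a median of −3.45 and the red cell list of −1.72, while the median of the myeloid list is 0.91.

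Genes of mast cells, basophils and eosinophils were examined because these cells use GATA factors. Mast cells and basophils depend on GATA2, and 4 of 10 tested genes of that list fell and 1 rose, where 13.8% of all genes were lower and 12.4% higher. The 1 that rose, named after its value was seen, was Mitf (0.72, adjusted p = 0.0402), and 1 of 10 is not above the share of all genes. The summed level was between 176 and 205 scaled CPM in JMML and between 263 and 337 in WT. The proteases Prss34 (−1.96 ± 0.21) and Mcpt8 (−1.17 ± 0.25) and the IgE receptor genes Fcer1a (−1.88 ± 0.45) and Ms4a2 (−0.96 ± 0.25) were those that fell. The 4 became 2 with the letter and in the M libraries and 1 without WT replicate 1 or 2, and none of the list rose with library totals alone, the stricter count filter or the letter, or without JMML replicate 2, JMML replicate 3 or any of the WT replicates. Prss34 was called in each alternative. Over all tested genes 12.3% were called with the letter, and 15.9% and 11.7% without WT replicate 1 and 2, in either direction. Eosinophils depend on GATA1. In edgeR's quasi-likelihood test none of 9 eosinophil genes was called, 1 had an unadjusted p under 0.05 (Siglecf, 0.64 ± 0.21), and DESeq2 called 1 and limma-voom 0. Their summed level overlapped, at 432 to 1046 scaled CPM in JMML and 187 to 1116 in WT.

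Stem cell and endothelial genes, whose cells express Gata2, Tal1, Lyl1, Lmo2 and Fli1, were lower. The share of all tested genes that fell was 13.8%. Of 13 stem cell genes 10 fell, with a median of −1.82 and summed levels of 177 to 193 scaled CPM in JMML and 290.2 to 373 in WT. They included Slamf1 (−4.45 ± 0.46), Meis1 (−1.48 ± 0.19), Myct1 (−3.12 ± 0.50) and the stem cell factor receptor gene Kit (−0.75 ± 0.14, not called with the letter or in the M libraries). Kit gave 58.5% of the summed level. The 3 stem cell genes that did not pass were Procr (−0.35), Cd34 (−0.34) and Hoxa9 (−0.53), named after their values were seen. Of 12 endothelial genes 8 fell, with a median of −2.25 and sums of 70.9 to 125 in JMML and 273 to 487 in WT. Stab2 (−3.95 ± 0.41), Egfl7 (−1.01 ± 0.14) and the VEGF receptor genes Kdr (−3.31 ± 0.54) and Flt4 (−2.52 ± 0.45) were among those that fell. The count of 10 was 6 under the letter covariate and on omitting JMML replicate 1 or WT replicate 1, 4 on omitting WT replicate 2 and 5 on omitting WT replicate 3. The 8 endothelial calls became 5 on omitting WT replicate 2 or 3. Over all tested genes 12.3% were called with the letter, in either direction. Without JMML replicate 1 and WT replicates 1, 2 and 3 it was 21.5%, 15.9%, 11.7% and 17.7%. The part of stem and endothelial cells in the change of each factor was not tested.

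Lymphoid and myeloid genes differed in direction, where 13.8% of all tested genes fell and 12.4% rose. All 10 B cell genes (Pax5 at −6.76 ± 0.77, Ebf1 at −5.37 ± 0.68 and Cd79a at −6.07 ± 0.82 among them) and all 10 T cell genes (such as Cd2 at −2.10 ± 0.25) fell, with medians of −5.44 and −1.66. The B cell sum was 12.1 to 19.97 scaled CPM in JMML and 147 to 591 in WT, and the T cell sum 15.1 to 24.0 and 47.9 to 77.4. Of 14 myeloid genes 10 rose, with a median of 0.91 and sums of 12654 to 15305 in JMML and 7399 to 10397 in WT. Spi1, whose product PU.1 opposes GATA1 in the choice between myeloid and red cell fates, had 101, 78.4 and 94.0 scaled CPM in WT replicates 1, 2 and 3 and 181, 222 and 194 in JMML replicates 1, 2 and 3 (1.13 ± 0.14). The libraries did not overlap, and Spi1, the monocyte gene Ly6c2 (1.48 ± 0.14), the granule protease gene Ctsg (499.6 to 583 scaled CPM in JMML, 232 to 306 in WT) and Irf8 (1.11 ± 0.18) were called in each alternative. The 10 B cell calls became 5 with the letter and 4 in the M libraries, where Cd79a was not called. The 10 T cell calls became 2 with the letter, 3 in the M libraries, 6 without JMML replicate 1, JMML replicate 2 or WT replicate 1 and 4 without WT replicate 2. The count of 10 myeloid genes was 6 on omitting WT replicate 1 and 5 on omitting WT replicate 2. Over all tested genes 12.3% were called with the letter, in either direction. Without JMML replicate 1, JMML replicate 2, WT replicate 1 and WT replicate 2 it was 21.5%, 16.3%, 15.9% and 11.7%. The part of these cells in the factors' change was not tested.

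Among 10523 other genes whose mean log2 CPM was at least 2, those most like Gata1 over the 6 libraries were Tent5c, Sptb, Ninl, Nipa1 and Ryk. Pearson's r of log2 CPM with Gata1 lay between 0.9969 (Nipa1 and Ryk) and 0.9988 (Tent5c). Sptb, the spectrin of the red cell skeleton, had 474, 289.7 and 349 scaled CPM in WT replicates 1, 2 and 3 and 110.0, 20.6 and 57.5 in JMML replicates 1, 2 and 3. The 5 are the top of many genes over only 6 points that also differ by group and depth, so this is a description. Among the factors, r with Gata1 was 0.99 for Klf1 and Gfi1b, 0.97 for Tal1, 0.93 for Zfpm1, 0.86 for Lmo2, 0.54 for Gata2, −0.53 for Nfe2, −0.78 for Lyl1 and −0.80 for Fli1.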

How the data were processed

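Total RNA of 3 JMML and 3 WT libraries was made into stranded libraries, per the labels' protocols. The authors deposited raw read counts per Ensembl gene for each library. The submitters' processing notes name the build GRCm38 and list as tools, with no order, DESeq2 1.22.2, StringTie 1.3.3b, STAR 2.5.3a, R 3.5.0, bcl2fastq 2.18.0.12 and Picard 2.0.1. The sources used here do not give the counting program, the annotation or the strand setting.

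GENCODE vM21 gave symbols to 45229 of 46078 genes (98.2%), and 1 listed gene, Ahsp, was unmatched. Counts were tested with edgeR 4.0.16 (filterByExpr, TMM scaling, glmQLFit and glmQLFTest without covariates) in R 4.3.3, and genes were called at a Benjamini-Hochberg adjusted p under 0.05. Replicates varied by a common biological coefficient of variation of 29.4%. The fit was first tested on simulated data with known changes. It recovered 6% of 1.5-fold, 34% of 2-fold, 74% of 4-fold and 96% of 8-fold changes. Of its 111 calls there, 6 were false. The simulation changed 200 genes, where 4737 were called in the real data. Its adjusted p was therefore stricter, and the recovered shares do not give the power of the test here. The 15 alternatives included DESeq2 1.42.0, limma 3.58.1 (voom), other scaling and filters, the identifier letter as a covariate, the M libraries alone, a replicate block and leaving out each library. No library pair was alike within sampling noise.

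The factors and gene lists were chosen with earlier results of these data known. Named genes are the 10 factors, up to 4 genes per list with the smallest p, the 5 genes most like Gata1, and neighbours of a factor. Genes outside this rule are said to be named after their values were seen. Values of some genes under this rule are not reported here.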

Additional observations from a re-analysis of the deposited data

How the results depend on the processing

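No factor changed sign in any of the 15 alternatives, and Zfpm1 was called in all of them. Of all tested genes 4737 were called, 2245 higher and 2492 lower in JMML. Library totals alone moved the median of all genes from −0.02 to −0.21 and the share of higher calls from 47.4% to 27.0%, with 1280 higher and 3460 lower and 0 of the factors higher. With the letter as a covariate 2219 genes were called (969 higher, 1250 lower) and 1 factor, lower, with 0 higher. In the M libraries 2310 were called (1012 higher, 1298 lower) and 5 factors, with 0 higher. Leaving out 1 library at a time gave 2203 to 4003 calls, 1050 to 1955 higher and 1153 to 2048 lower, and 2 to 8 factors called, 2 to 6 lower and 0 to 2 higher. The lowest values came without WT replicate 2 for all genes and without WT replicate 1 for the factors. The difference in the log2 ratio of Gata1 to Gata2 ran from −0.95 to 0.40 when 1 library was left out, and was 0.40 without JMML replicate 2. Leaving out a library lowers the number of libraries, and the cause of the other shifts was not tested.

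Same-numbered libraries showed no clear pairing in their values, although replicate 3 of both groups shares the start of its identifier. They correlated at −0.199, 0.0453 and −0.143 in their deviations from the group means. With 3 libraries per group and letters that differ only within JMML, these correlations cannot show whether libraries were paired. With a replicate block 2809 genes were called (1358 higher, 1451 lower), 15.5% of those tested, and of the factors 6 were lower and 1 higher. Lyl1 was not called with that block (0.45, adjusted p = 0.0701), nor were Zfpm2, Mcpt8, Fcer1a and Ms4a2. Lower counts with the block were 1 for mast cell and basophil genes (4 without it), 6 for stem cell genes (10) and 5 for T cell genes (10). The smallest count of a factor was 824.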
